A study of Mus musculus with 18 samples.

Results

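The genes described here are Sirpa, Sirpb1a, Sirpb1b, Sirpb1c and Cd47, the signal regulatory proteins (SIRPs) listed by name and the ligand of SIRPα, in mouse bone marrow-derived macrophages (BMDMs). They are 5 of the 21734 protein-coding genes of the count table, all 5 are among the 11357 genes with enough counts to be tested, and they were chosen by the values of Sirpb1a and Sirpb1c in knockout against wild-type macrophages, which had been seen higher without miR-146a in both states. Those values are therefore given as a description, without a test.

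SIRPα is an inhibitory receptor of myeloid cells. When it binds CD47 on a neighbouring cell, its cytoplasmic tyrosine motifs recruit the phosphatases SHP-1 and SHP-2, which restrain engulfment, and CD47 is for this reason known as a "don't eat me" signal. The SIRPβ1 receptors resemble SIRPα outside the cell but have a short tail, do not engage CD47 in the same way, and signal through the adaptor DAP12, which activates the kinase SYK.

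RNA was sequenced from BMDMs of wild-type mice (WT), of mice with a deleted mir-146a (KO) and of mice whose mir-146a keeps its 5′ part while bases of the 3′ part are exchanged with those of the opposite strand of the hairpin (3F). Cells of each genotype were left resting or were given 1 ng/ml LPS, the bacterial ligand of TLR4, for 16 h, and each of the 6 groups holds 3 libraries. All mice were of 129/B6 mix and 6 to 7 months old, 3 mice of each genotype gave marrow, and every culture, resting ones included, had grown for 8 to 9 days in M-CSF at 10 ng/ml and received fresh medium at the start of the 16 h. Both mutant alleles were made by targeting embryonic stem cells and are present in the whole animal, so that marrow precursors lacked the wild-type microRNA before culture began, and mir-146b was not targeted.

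The microRNAs that distinguish the groups are shown first because the alleles were made to differ in this sequence. Capitals mark the seed, bases 2 to 8 from the 5′ end, which pairs with target transcripts. The first and second sequences are the mature strands in RefSeq, build GRCm38.p6, at chr11:43374435-43374456 on the minus strand and chr19:46342790-46342811 on the plus strand, and the other two are the 20-base mimics that the study designed after the WT and 3F alleles.
mmu-miR-146a-5p: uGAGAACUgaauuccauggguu
mmu-miR-146b-5p: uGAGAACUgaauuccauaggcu
WT mimic: uGAGAACUgaauuccauggg
3F mimic: uGAGAACUgaauaagugucc
All of them share the seed. The mimics share their first 12 bases and differ at each of the last 8, whereas miR-146a-5p and miR-146b-5p differ at 2 bases of 22.

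The longest annotated 3′ UTRs of Sirpa (2044 bases), Sirpb1a (208), Sirpb1b (208) and Sirpb1c (1235) held no match to the seed, neither of 6, 7 nor 8 bases. That of Cd47 (4133 bases) held 3 matches of 6 bases and 1 of 7 bases, which is shown with its surroundings and with the paired bases in capitals.
Cd47 3′ UTR site: gtggctcccAGTTCTCgtcccatca
Among 20751 genes with an annotated 3′ UTR, 18.2% held a match of 7 or 8 bases and 29.8% held any match. A match is a description of letters, and binding was not measured here.

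The SIRPβ1 genes lie side by side on chromosome 3 (mm10), all on the minus strand, Sirpb1a at chr3:15371653-15426520, Sirpb1b at chr3:15495751-15575065 and Sirpb1c at chr3:15795145-15848528. Sirpa lies on another chromosome, at chr2:129592835-129632228 on the plus strand, and Cd47 at chr16:49800533-49915010 on the plus strand. The coding sequences of the SIRPβ1 genes, each of 1194 bases, were 97.5% identical between Sirpb1a and Sirpb1b, 97.4% between Sirpb1a and Sirpb1c and 98.3% between Sirpb1b and Sirpb1c. That of Sirpa, of 1542 bases, aligned with them at 54.3% to 54.6% identity. Gaps count as differences in these values, so the greater length of Sirpa lowers its identity.

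This likeness bears on every value of a single SIRPβ1 gene. Of the 50-base windows along their transcripts, 43.8% of those of Sirpb1a, 66.8% of those of Sirpb1b and 37.4% of those of Sirpb1c were also found in a protein-coding transcript of another SIRP gene, and for Sirpb1c the share was 59.0% when other transcript types were counted. No window of Sirpa was found in another gene, and 0.6% of those of Cd47 were. Counting used a mapping quality minimum at which reads that align equally well to several places are dropped, so reads from shared stretches are likely to be missing from each copy and from their sum, and the values of the separate SIRPβ1 genes are uncertain.

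The start regions of the SIRPβ1 genes are printed because Sirpb1a and Sirpb1c differed between genotypes in the values that chose the members. The windows run from 250 bases before to 50 bases after the RefSeq start on the minus strand of build GRCm38.p6, at chr3:15426378-15426677 for Sirpb1a, chr3:15575016-15575315 for Sirpb1b and chr3:15848438-15848737 for Sirpb1c. Capitals mark matches on either strand to GAAANNGAA, a form of the interferon-stimulated response element (ISRE), and to TTCNNNGAA, a form of the interferon gamma-activated (GAS) element, which do not overlap here.
Sirpb1a: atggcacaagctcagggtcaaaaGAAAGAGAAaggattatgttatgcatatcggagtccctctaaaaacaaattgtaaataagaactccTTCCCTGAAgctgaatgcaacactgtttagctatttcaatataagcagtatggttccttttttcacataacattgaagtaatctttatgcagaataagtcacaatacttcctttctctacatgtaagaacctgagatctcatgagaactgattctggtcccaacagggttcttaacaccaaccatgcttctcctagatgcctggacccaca
Sirpb1b: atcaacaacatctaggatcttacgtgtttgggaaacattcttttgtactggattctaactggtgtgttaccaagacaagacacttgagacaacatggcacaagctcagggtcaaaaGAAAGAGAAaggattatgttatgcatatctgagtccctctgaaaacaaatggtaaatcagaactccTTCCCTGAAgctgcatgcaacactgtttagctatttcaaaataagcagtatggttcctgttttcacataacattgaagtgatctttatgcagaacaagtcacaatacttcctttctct
Sirpb1c: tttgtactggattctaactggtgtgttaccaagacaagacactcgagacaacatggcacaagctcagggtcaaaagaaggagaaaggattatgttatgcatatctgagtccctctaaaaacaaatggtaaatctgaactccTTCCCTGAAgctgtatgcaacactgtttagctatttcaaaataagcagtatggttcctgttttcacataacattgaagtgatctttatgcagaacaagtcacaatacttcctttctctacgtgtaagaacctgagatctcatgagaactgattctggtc
The annotated starts differ, so one stretch appears at different places in the windows. Over 248 aligned bases Sirpb1a and Sirpb1c were 95.6% identical, over 207 bases Sirpb1a and Sirpb1b were 95.7% identical, and over 259 bases Sirpb1b and Sirpb1c were 98.1% identical. The GAS letters stood in all 3 windows, and 8.3% of 32851 RefSeq promoter windows of this length hold them. The ISRE letters stood in Sirpb1a and Sirpb1b, and 8.6% of the windows hold them. Sirpb1c carried A4G at the aligned place, counted from 1 at the 5′ end of the motif with the base of Sirpb1a first, and had no match. The letters of AP-1 (TGANTCA, in 7.8% of windows), NF-kB (GGGANTTTC, in 1.1%) and the PU.1 core (GAGGAA, in 28.3%) were found in none of these windows, and neither these nor the ISRE or GAS letters were found in the Cd47 windows. The matches describe letters, and no factor was measured here.

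Depth ran from 4071084 to 19818043 counts per library. Levels are given as CPM, counts per 1000000 of a library size scaled by TMM. On the first principal component, which held 61.8% of the variance, resting KO replicate 3 lay at 19.7, among the libraries with LPS, while the other resting KO libraries lay at −28.2 and −31.4. On the second, which held 10.2%, resting 3F replicate 3, the shallowest library, lay at 50.3, above all others. Several values of members and list counts that turned on these libraries are also given without them. The macrophage markers Adgre1, Csf1r, Cd68, Itgam, Mertk and Lyz2 were present in every library, with a summed level of 31000 to 85000 CPM. Most of the sum was Lyz2, at 26500 to 75200 CPM, and Mertk was the lowest, at 42.6 to 142 CPM. The neutrophil markers summed to at most 65.3 CPM, with Ly6g near 0. Among them S100a8 was at 48.3 CPM in resting KO replicate 3 and 44 in resting 3F replicate 3. The other resting libraries held at most 16.7 CPM of it. Camp was at 1.68 and 3.04 CPM in these 2 libraries, S100a9 at 2.47 and 16.9, and Ngp at 0 and 0.234, so the neutrophil markers did not all move together. The dendritic cell markers summed to at most 3.75 CPM and the lymphocyte and erythroid markers to at most 0.702 CPM each. The stromal markers summed to at most 2.03 CPM, and Cd3e was at 0 in every library.

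Sirpa was by far the most abundant member. Per kb of exon, resting WT macrophages held 482 ± 34.8 CPM of Sirpa (SD, n = 3), 30.3 ± 5.44 of Cd47, 9.98 ± 1.25 of Sirpb1c, 6.89 ± 2.04 of Sirpb1a and 5.72 ± 0.74 of Sirpb1b. The ranges of Sirpb1a and Sirpb1b overlapped. In bulk RNA a change in the number of cells that express a gene cannot be told apart from a change in RNA per cell.

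Sirpa, the inhibitory receptor, overlapped between genotypes. Resting WT libraries held 1890, 2180 and 2070 CPM, resting KO libraries 2300, 2210 and 1970, and resting 3F libraries 2190, 2110 and 1260. With LPS the WT libraries held 2840, 2210 and 2660 CPM, the KO libraries 2800, 2940 and 2500, and the 3F libraries 2620, 3080 and 2640. The lowest value of all was that of the shallow resting 3F replicate 3. Ordered by mean, the groups with LPS stood above the resting groups, and the ranges of all neighbours in that order overlapped. Within each genotype, however, every library with LPS held more Sirpa than every resting library. The share of all genes that did so was not counted.

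Cd47, the ligand, was raised by LPS in WT and 3F. Resting WT libraries held 140, 146 and 193 CPM and rose to 388, 312 and 475, and resting 3F libraries held 169, 154 and 145 and rose to 399, 393 and 325. Resting KO libraries held 185, 207 and 471 CPM, against 436, 468 and 418 with LPS. In WT and in 3F the states did not overlap, whereas resting KO replicate 3 lay above each of the KO libraries with LPS. The share of all genes whose states did not overlap was not counted.

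The SIRPβ1 genes were much lower in count, between 29 and 988 reads per library. Sirpb1a, one of the activating receptors, held 8.01, 9.41 and 13.9 CPM in resting WT, 11.6, 13.9 and 13.3 in resting 3F and 15.5, 21.6 and 21.1 in resting KO libraries. With LPS it held 15.6, 11.1 and 17.9 CPM in WT, 12.7, 20.3 and 14.9 in 3F and 25.9, 26.9 and 28.5 in KO libraries. The KO libraries were above every WT and 3F library of the same state, and WT and 3F overlapped. Being above WT is the choice of the members. Every KO library was above every WT library for 13.7% of all genes at rest and 16.9% with LPS. The share above 3F was not counted.

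Sirpb1c, the copy with most reads, showed the same order. It held 28.9, 24.6 and 31.7 CPM in resting WT, 30.8, 35.1 and 33.2 in resting 3F and 50.9, 64.0 and 59.3 in resting KO libraries. With LPS it held 37.5, 24.5 and 46.8 CPM in WT, 32.1, 42.2 and 32.6 in 3F and 59.8, 71.5 and 67.8 in KO libraries. Each of the 6 KO libraries was above each of the 12 WT and 3F libraries. The share of all genes that did so was not counted, and Sirpb1c had been chosen for being higher in KO than in WT.

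Sirpb1b, the copy with fewest reads, followed this order with LPS and overlapped at rest. It held 9.26, 7.38 and 9.38 CPM in resting WT, 8.18, 11.1 and 6.79 in resting 3F and 9.15, 13.2 and 11.9 in resting KO libraries. With LPS it held 8.03, 6.07 and 10.1 CPM in WT, 7.62, 9.70 and 7.31 in 3F and 12, 15.4 and 16 in KO libraries.

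**Figure D1:**
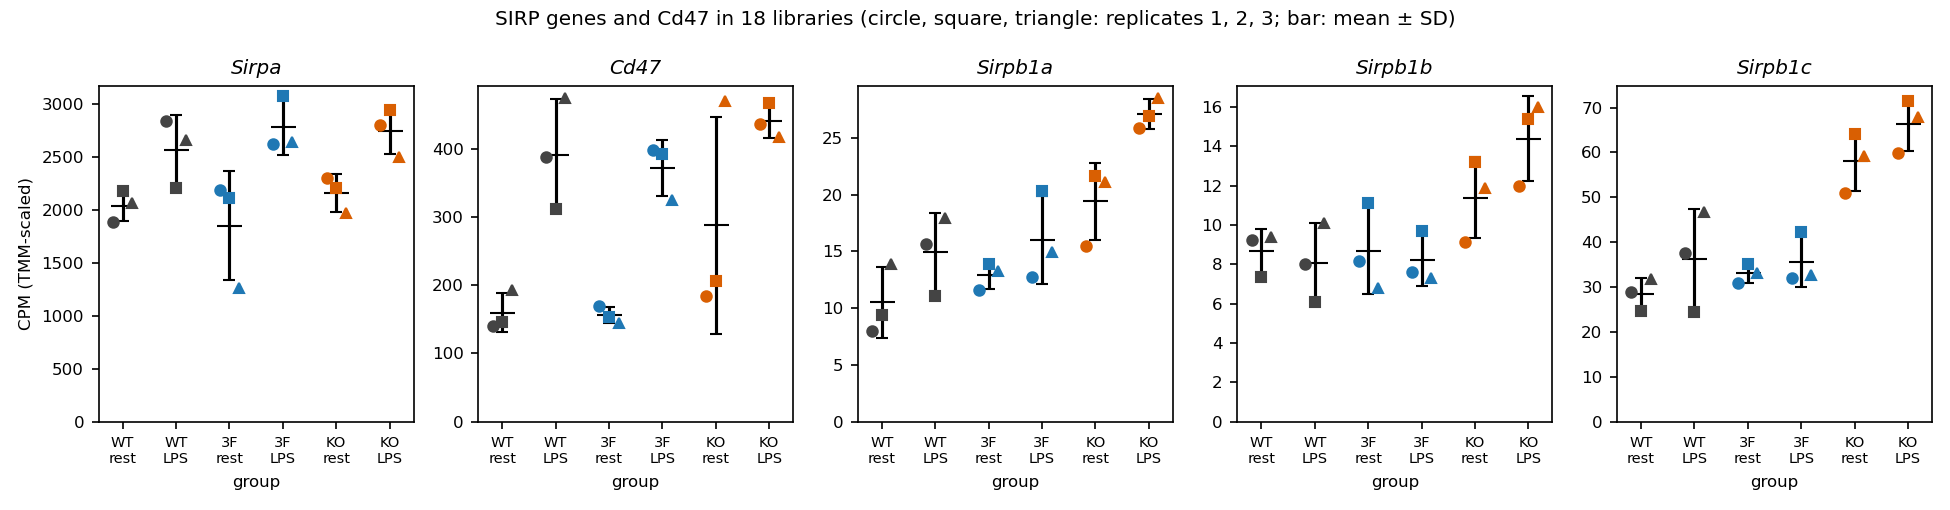
CPM (TMM-scaled, linear axes from 0) of Sirpa, Cd47, Sirpb1a, Sirpb1b and Sirpb1c in the 18 libraries by group, with circles, squares and triangles for replicates 1, 2 and 3 and bars for the mean and SD of 3 libraries. The KO libraries stand above the others for Sirpb1a and Sirpb1c in both states, LPS raises Cd47 in WT and 3F, and resting KO replicate 3 has 471 CPM of Cd47 against 185 and 207 in the other resting KO libraries.

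The response to LPS within each genotype was tested with edgeR's quasi-likelihood test with Benjamini-Hochberg adjustment over all 11357 genes, since the state of a culture did not choose the members. In WT, 1 of the 5 members was called, Cd47, which was 2.45-fold higher with LPS (log2 difference 1.29 ± 0.27 SE, adjusted p = 0.00194), beside 16.3% of all genes called higher and 12.3% called lower. In 3F, 2 of the 5 were called. Cd47 was 2.39-fold higher (1.25 ± 0.27, adjusted p = 0.00229) and Sirpa 1.5-fold higher (0.58 ± 0.17, adjusted p = 0.0184), where 17.2% of all genes were called higher and 14% lower. The call of Sirpa was lost without resting 3F replicate 3 (0.33, adjusted p = 0.0694) and without 3F replicate 2 with LPS (0.50, adjusted p = 0.0783).

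In KO, 0 of the 5 members were called with LPS by edgeR, where 14.3% of all genes were called higher and 12.6% lower. At an unadjusted p under 0.05 there were 2, DESeq2 called 0, and voom with sample quality weights called 3. With a block for same-numbered libraries edgeR called 2. The difference of Cd47 was 0.62 ± 0.26 on the log2 scale (adjusted p = 0.0985). Without resting KO replicate 3 it was 1.17 (adjusted p = 6.95e-05). Sirpa differed by 0.33 ± 0.17 in WT (adjusted p = 0.173) and 0.35 ± 0.17 in KO (adjusted p = 0.156). By voom it was called in both, at 0.345 in WT (adjusted p = 0.0153) and 0.274 in KO (adjusted p = 0.0293). Without both libraries that stood apart edgeR called it in WT (0.295, adjusted p = 0.0318).

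None of the SIRPβ1 genes passed this test with LPS in any genotype when all libraries were used without a replicate block, whereas voom called Sirpb1a in KO (0.60, adjusted p = 0.00664). Sirpb1a differed by 0.52 ± 0.22 in WT (adjusted p = 0.0953), 0.48 ± 0.21 in KO (adjusted p = 0.109) and 0.32 ± 0.22 in 3F (adjusted p = 0.297). Sirpb1c differed by 0.35 ± 0.19, 0.19 ± 0.18 and 0.11 ± 0.19 (adjusted p = 0.173, 0.468 and 0.68), and Sirpb1b by −0.10 ± 0.22, 0.34 ± 0.21 and −0.11 ± 0.22 (adjusted p = 0.772, 0.256 and 0.739). Without WT replicate 2 with LPS both Sirpb1a (0.69, adjusted p = 0.0362) and Sirpb1c (0.57, adjusted p = 0.0135) were called in WT, and without resting WT replicate 3 Sirpb1a was (0.77, adjusted p = 0.0243).

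**Figure D2:**
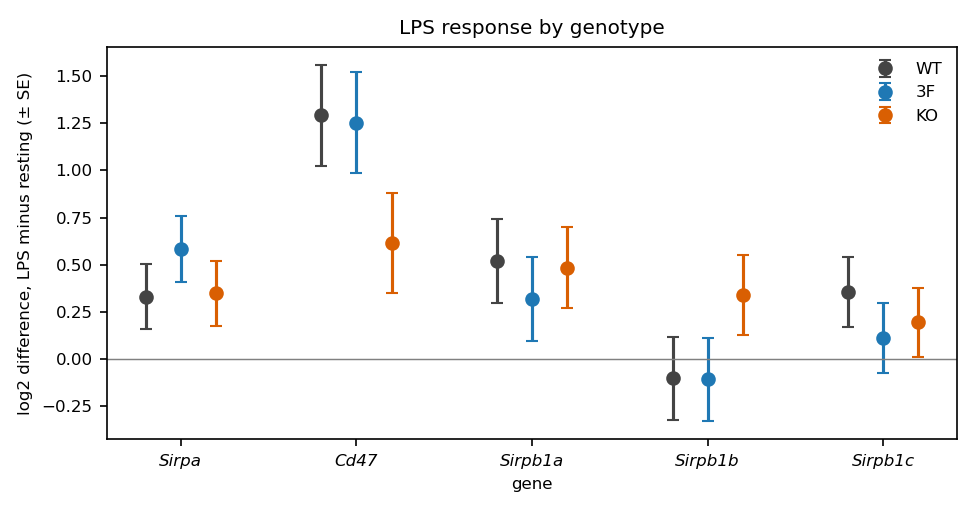
Log2 difference between LPS and resting libraries, with SE from the edgeR fit, for each gene in WT, 3F and KO BMDMs (3 against 3 libraries each). Cd47 lies at 1.29 in WT and 1.25 in 3F and at 0.62 in KO, where resting KO replicate 3 is included, and the SIRPβ1 genes lie between −0.11 and 0.52.

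The WT and 3F macrophages were compared to ask whether the 3′ sequence of miR-146a bears on these genes. At rest 0 of the 5 members were called by edgeR's quasi-likelihood test, where 0% of all genes were (557 of 11357 had an unadjusted p under 0.05, and DESeq2 called 2). With LPS 0 of 5 were called, where 0.00881% of all genes were (106 had an unadjusted p under 0.05). None of the 5 had an unadjusted p under 0.05 or was called by DESeq2 or voom in either state. The WT libraries, though not those of 3F, had taken part in choosing the members. The differences of 3F from WT at rest were 0.31 ± 0.23 for Sirpb1a, 0.04 ± 0.22 for Sirpb1b, 0.22 ± 0.19 for Sirpb1c, −0.14 ± 0.17 for Sirpa and −0.03 ± 0.27 for Cd47, with adjusted p from 0.843 to 0.992. With LPS they ran from −0.07 for Cd47 to 0.11 for Sirpa and Sirpb1a, with SE of 0.17 to 0.26 and adjusted p of 1. The LPS response of 3F differed from that of WT for 0 of the 5 members and 0% of all genes (203 had an unadjusted p under 0.05), with member values between −0.24 and 0.25. Differences of this size could not be told from 0 with 3 libraries a group.

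The KO macrophages were compared with WT to describe the levels of these genes in cells with the deleted allele. Whether other differences between the mouse lines take part was not tested. Among the 5 members, Sirpb1a and Sirpb1c did not overlap between KO and WT at rest, which is the choice of the members itself. Every KO library lay above every WT library for 13.7% of all genes at rest, and 5.12% were called higher and 4.27% lower. Sirpb1c was 2.04-fold higher (1.03 ± 0.19 SE on the log2 scale), Sirpb1a 1.87-fold (0.90 ± 0.22) and Sirpb1b 1.31-fold (0.39 ± 0.22). Sirpa differed by 0.08 ± 0.17. With LPS all 3 SIRPβ1 genes stood clear of WT, as did 16.9% of all genes on the higher side, and 1.89% of all genes were called higher and 2.9% lower. Sirpb1c was 1.83-fold higher (0.87 ± 0.18), Sirpb1a 1.82-fold (0.87 ± 0.22) and Sirpb1b 1.79-fold (0.84 ± 0.21), and Sirpa differed by 0.10 ± 0.17.

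Single libraries were also left out in turn, as a further description of values that had chosen the members and not as support for them. Over 6 such fits in each state, Sirpb1c differed by 0.94 to 1.12 at rest and 0.66 to 1.10 with LPS, and Sirpb1a by 0.74 to 1.15 and 0.69 to 1.02. The difference of Cd47 at rest depended on 1 library. It was 0.85 ± 0.27 with all libraries and 0.30 without resting KO replicate 3, and it was 0.17 ± 0.26 with LPS. The summed macrophage markers moved with the genotype as well, at 31000 to 47000 CPM in resting WT, 59300 to 60400 in resting KO, 43500 to 56800 in WT with LPS and 68100 to 85000 in KO with LPS, most of it Lyz2. The means of the single markers did not all differ in one direction. As means at rest and with LPS, Csf1r was at 1740 and 2700 CPM in WT against 3050 and 3550 in KO, and Mertk at 65.3 and 68.2 against 89.4 and 118. Itgam had lower means in KO, at 245 and 330 CPM in WT against 150 and 219, as had Cd68, at 936 and 796 against 867 and 697, and Adgre1 was at 1540 and 3640 CPM against 1580 and 4650. Their part in the difference of the SIRPβ1 genes was not tested.

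The KO and 3F macrophages use the same KO libraries, so their comparison is again a description. At rest the KO libraries exceeded 3F by 0.81 ± 0.19 for Sirpb1c, 0.59 ± 0.22 for Sirpb1a and 0.35 ± 0.22 for Sirpb1b, beside 6.79% of all genes called higher and 6.1% called lower. With LPS the differences were 0.89 ± 0.18, 0.75 ± 0.22 and 0.80 ± 0.22, beside 1.51% called higher and 2.37% called lower. Sirpa differed by 0.22 ± 0.17 at rest (0.0162 to 0.358 leaving out single libraries) and −0.02 ± 0.17 with LPS. Cd47 differed by 0.88 ± 0.27 at rest (0.33 without resting KO replicate 3) and 0.24 ± 0.26 with LPS. The LPS response of KO less that of WT was −0.68 ± 0.37 for Cd47 and −0.13 without resting KO replicate 3. It was between −0.16 and 0.45 for the other members, and 0.00881% of all genes were called.

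The SIRPβ1 copies were also summed. The sum was 47.5 ± 6.90 CPM in resting WT, 54.7 ± 4.92 in resting 3F and 88.9 ± 12 in resting KO (SD, n = 3). With LPS it was 59.2 ± 16.6 in WT, 59.8 ± 10.8 in 3F and 108 ± 8.90 in KO. The lowest KO sum, 75.5 CPM at rest, was above the highest WT sum, 74.8 CPM with LPS, by less than 1 SD of either group. Sirpb1c made up 59.7% to 65.4% of the SIRPβ1 counts as a group mean, Sirpb1a 21.8% to 26.5% and Sirpb1b 12.8% to 18.3%. The share of Sirpb1b was highest in resting WT, at 18.3% ± 1.56, and lowest in resting KO, at 12.8% ± 0.64.

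**Figure D3:**
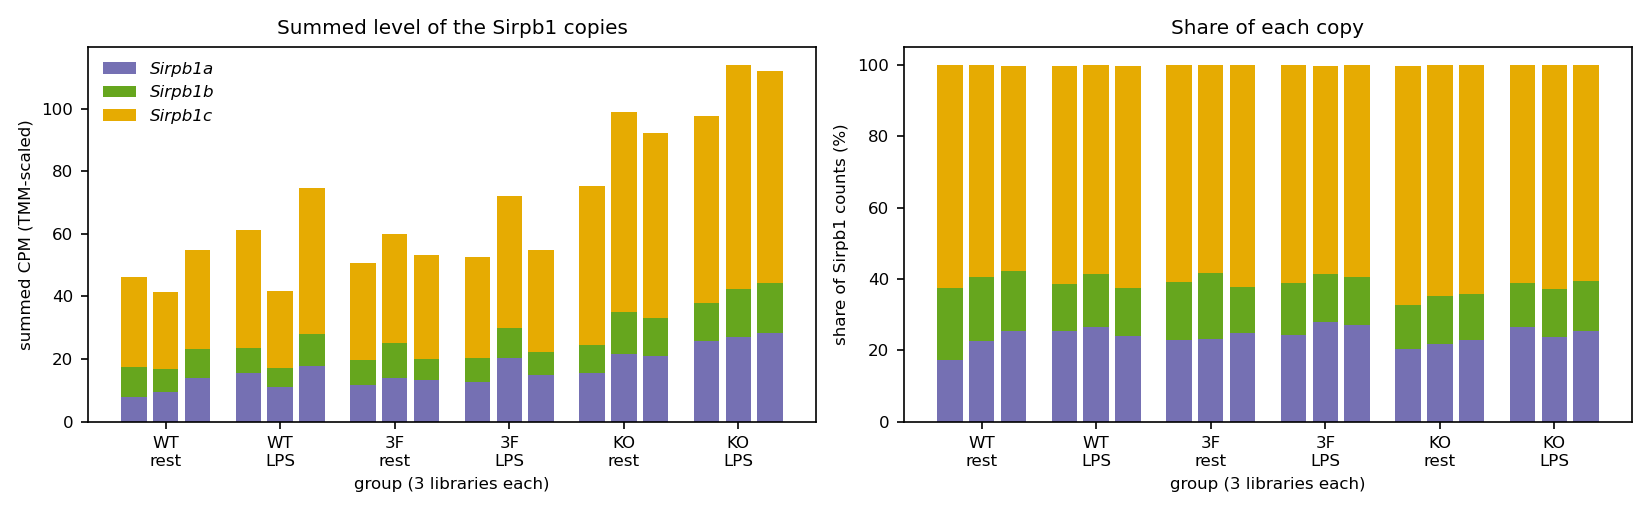
Left, summed CPM (TMM-scaled) of Sirpb1a, Sirpb1b and Sirpb1c in each of the 18 libraries, stacked by copy. Right, the share of each copy in percent. The sum is 75.5 to 114 CPM in the KO libraries and 41.4 to 74.8 in the WT libraries, and Sirpb1c holds most of the counts in every library.

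The balance of the receptor and its ligand followed Cd47. Per kb of exon, Sirpa exceeded Cd47 16.2 ± 2.64 times in resting WT, 14.7 ± 3.38 in resting 3F and 11.3 ± 5.41 in resting KO macrophages, where resting KO replicate 3 had a ratio of 5.19 and the others 15.5 and 13.3. With LPS the ratio was 8.30 ± 1.16 in WT, 9.34 ± 1.03 in 3F and 7.76 ± 0.28 in KO. RNA levels give the cell's own transcripts and not receptor or ligand at the surface.

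Cd47 and Sirpb1c set the libraries apart in different directions. Relative to the resting WT mean, Cd47 was at 0.878 to 1.30 in the resting libraries other than KO replicate 3, which was at 2.95, and at 1.95 to 2.97 with LPS. Sirpb1c was at 1.79 to 2.25 in resting KO and 2.1 to 2.52 in KO with LPS, against 0.862 to 1.65 in all WT and 3F libraries. Resting KO replicate 3 thus lay with the LPS libraries in Cd47 and with the KO libraries in Sirpb1c, at 2.09. Its place in Sirpb1c is no separate result, since these KO libraries, against WT, had chosen the members.

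**Figure D4:**
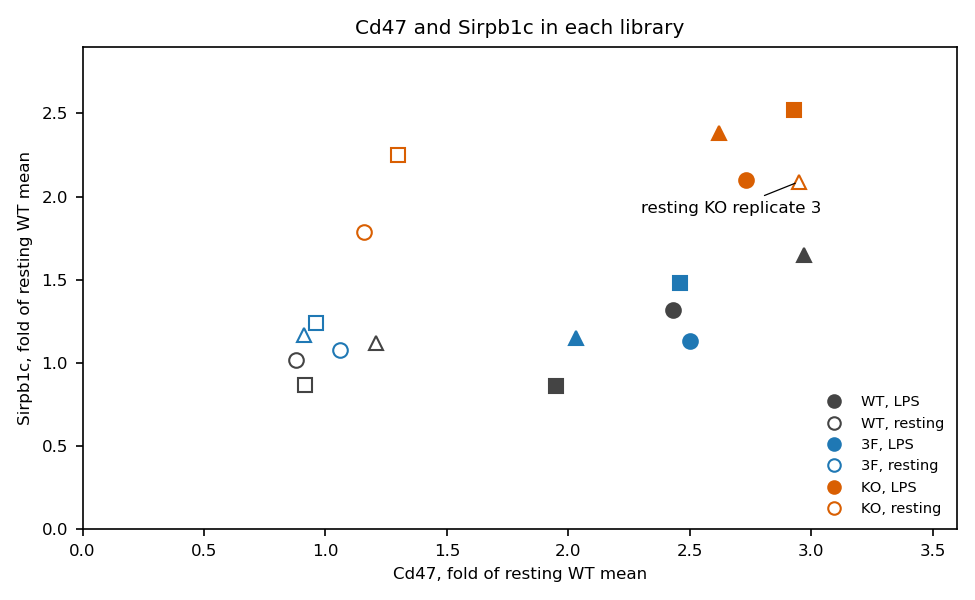
Level of Cd47 (horizontal) and of Sirpb1c (vertical) in each library as a fold of the resting WT mean, on linear axes, with open symbols for resting and filled symbols for LPS libraries and with circles, squares and triangles for replicates 1, 2 and 3. LPS separates libraries along Cd47, apart from resting KO replicate 3, which lies at 2.95 and 2.09. KO libraries lie higher along Sirpb1c, which was chosen for being higher in KO than in WT.

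Likeness across the 18 libraries was measured by Pearson's r of log2 CPM, as a description, since the libraries share genotype and state. Among the genes most like Cd47 were Irgm1 (r = 0.993), Ifi204 (0.991), Rsad2 (0.991) and Gbp3 (0.990). The resting KO replicate 3 stood apart in these as in Cd47, with 2010 CPM of Rsad2 against 102 and 72.9 in the other resting KO libraries and 12.4, 16.4 and 36.5 in resting WT. Irgm1 was at 535 CPM there, against 73.2 and 59.3 in the other resting KO libraries.

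The genes most like the SIRPβ1 copies included the copies themselves, which share sequence. For Sirpb1a they were Sirpb1c (r = 0.922), Sorl1 (0.903), Epc2 (0.899), Pla2g7 (0.880) and Ahrr (0.870), and for Sirpb1b they were Sirpb1c (0.877), Itgax (0.874), Itm2b (0.862), Gabpb1 (0.853) and Mertk (0.843). For Sirpb1c they were Lyz1 (0.933), Btaf1 (0.927), Sirpb1a (0.922), Scarb2 (0.921) and Itm2b (0.915). Sirpa was most like Vps37c (0.963), Pofut2 (0.956), Dctn4 (0.944), Plbd2 (0.944) and Tab2 (0.942), and its r with the SIRPβ1 genes was 0.313 to 0.463.

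A pair of SIRP-like genes flank the SIRPβ1 cluster. Gm5150, at chr3:15946870-16006437, shared no 50-base window with another gene. Its coding sequence of 900 bases aligned with the 1194 bases of each SIRPβ1 gene at 59.9% to 60.2% identity. Gaps count as differences in this value, so the unlike lengths lower it. Gm5150 held 10.7 ± 1.46 CPM in resting WT, 20.5 ± 4.84 in resting KO and 20.7 ± 13.9 in resting 3F, and 39.5 ± 16.9, 80.5 ± 6.75 and 36.9 ± 9.84 with LPS. Unlike the SIRPβ1 copies it passed edgeR's quasi-likelihood test with LPS in WT (1.89 ± 0.37, adjusted p = 0.00139) and in KO (1.98 ± 0.36, adjusted p = 0.000715), but not in 3F (0.94 ± 0.37, adjusted p = 0.0642). Without resting 3F replicate 3 it passed there too (1.51 ± 0.30, adjusted p = 0.00191). Whether it differed from the copies in this was not tested. Its KO to WT difference was 0.93 ± 0.38 at rest (adjusted p = 0.139) and 1.03 ± 0.35 with LPS (adjusted p = 0.105). Gm9733, at chr3:15296551-15332302, held at most 24 counts in a library.

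The genes around the cluster were counted in the same comparisons. Of 12 genes of the table, other than the SIRPβ1 copies, that start within 2000000 bases of a SIRPβ1 gene, 8 were tested, Gm5150 among them. In KO against WT edgeR called 0 of the 8 in either state, with medians of 0.06 and 0.05 on the log2 scale. Of all genes 5.12% were called higher and 4.27% lower at rest, and 1.89% and 2.9% with LPS. For 8 genes a count of 0 is near these shares. At an unadjusted p under 0.05 there were 3 at rest and 1 with LPS, DESeq2 called 1 in each state, and voom 0 and 2. With LPS 4 of the 8 were called higher in WT, 4 in KO and 1 in 3F, where 16.3%, 14.3% and 17.2% of all genes were. The one called in every genotype was Car13, a carbonic anhydrase, at 2.02 ± 0.22 in WT (adjusted p = 7.99e-06).

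The direct signalling partners of these receptors were followed next. Tyrobp, which encodes DAP12, was not called in any comparison. It held 553 ± 40.6 CPM in resting WT, 637 ± 103 in resting KO and 668 ± 114 in resting 3F, and its LPS differences were −0.05, −0.08 and −0.23 in WT, KO and 3F (adjusted p = 0.837, 0.716 and 0.211). Ptpn6, which encodes SHP-1, rose with LPS in every genotype, from 315 ± 36.1 to 666 ± 51.7 CPM in WT (1.08 ± 0.15, adjusted p = 9.48e-05) and by 1.14 in KO and 0.98 in 3F. Ptpn11, which encodes SHP-2, rose by 0.44 ± 0.09 in WT (adjusted p = 0.00242), 0.53 in KO and 0.35 in 3F. Neither phosphatase was called between genotypes by edgeR, with KO to WT differences of 0.24 and 0.09 at rest (adjusted p = 0.387 and 0.609).

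Around these partners, 7 lists of 53 genes of the SIRP and DAP12 pathways and of like receptors were described, of which 47 were tested. With LPS, 24 of the 47 were called higher and 5 lower in WT, 25 and 6 in KO, and 28 and 5 in 3F. Without resting 3F replicate 3 the counts in 3F were 23 and 5. Without resting KO replicate 3 those in KO were 26 and 7. Of all genes 16.3% were called higher and 12.3% lower in WT, 14.3% and 12.6% in KO, and 17.2% and 14% in 3F. The lists had medians of 0.63, 0.54 and 0.55 on the log2 scale where those of all genes were 0.02, 0.02 and −0.01. Of 11 effectors of SIRPα, 8 were called higher in WT, 8 in KO and 10 in 3F, and 0 lower. Without resting 3F replicate 3, edgeR's calls in 3F of the effectors Grb2 (adjusted p = 0.154), Ptk2b (adjusted p = 0.116) and Myh9 (adjusted p = 0.0965) were lost. Of 9 other receptors with inhibitory motifs, 6 were called higher and 1 lower in each genotype. The largest differences were those of Siglece, an inhibitory sialic acid receptor (4.17 ± 0.26 in WT, adjusted p = 2.04e-08), Pilra, an inhibitory receptor (3.81 ± 0.36, adjusted p = 1.6e-06), and Pilrb1, its DAP12-coupled counterpart (3.59 ± 0.30, adjusted p = 4.01e-07).

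Fewer list genes fell with LPS. Itgb3, the β3 chain of an integrin that associates with CD47 (−2.59 ± 0.32, adjusted p = 2.39e-05), Cd300a, an inhibitory receptor (−2.17 ± 0.20, adjusted p = 1.24e-06), and Lrp1, an engulfment receptor for calreticulin (−0.79 ± 0.21, adjusted p = 0.011), fell in WT. Trem2, a DAP12-coupled receptor, fell in every genotype, by 0.54 in WT (adjusted p = 0.0261), 0.68 in KO (adjusted p = 0.00705) and 0.94 in 3F (adjusted p = 0.000713). Cd300lb, another, fell by 1.07 in KO (adjusted p = 5.53e-05) and 0.54 in 3F (adjusted p = 0.0115), and its difference in WT was −0.38 (adjusted p = 0.0627).

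Between KO and WT, 10 of the 47 list genes were called higher and 1 lower at rest, or 21.3% and 2.13%, against 5.12% and 4.27% of all genes. Those with the largest differences were Pilrb1, at 4.27 ± 1.39 against 1.16 ± 0.44 CPM (1.88 ± 0.32, adjusted p = 0.00271), Pilrb2, at 5.25 ± 2.23 against 1.62 ± 0.86 CPM (1.72 ± 0.36, adjusted p = 0.0085), and Fgr, a Src family kinase, at 39.7 ± 16.8 against 13.4 ± 5.56 CPM (1.57 ± 0.27, adjusted p = 0.003). Itgb3 was lower, at 8.47 ± 3.22 against 19.4 ± 5.43 CPM (−1.21 ± 0.30, adjusted p = 0.0183). The count of 11 was 4 without resting WT replicate 2, 7 without resting WT replicate 1 and 1 with the compared groups alone. Without resting KO replicate 3, 8 were called higher and 2 lower, with Pilrb1 at 1.62 (adjusted p = 0.00727), Pilrb2 at 1.37 (adjusted p = 0.0261) and Fgr at 1.18 (adjusted p = 0.00732). The 2 lower were Cd24a, of the engulfment list (−2.315, adjusted p = 0.00525 by edgeR), and Itgb3 (−1.25, adjusted p = 0.0354). Among the calls lost were those of Lyn (adjusted p = 0.128) and Clec5a (adjusted p = 0.0896). Pilrb1 and Pilrb2 are close paralogs, and the reads they may share were not examined.

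With LPS 4 of the 47 were called higher in KO than in WT and 0 lower, or 8.51% against 1.89% of all genes. Siglece stood at 34.6 ± 1.19 against 14.0 ± 1.71 CPM (1.30 ± 0.19, adjusted p = 0.000906), Pilrb1 at 29.7 ± 3.47 against 13.6 ± 3.42 CPM (1.13 ± 0.23, adjusted p = 0.0099) and Lcp2, the adaptor SLP-76 downstream of SYK, at 203 ± 30.4 against 117 ± 13.9 CPM (0.79 ± 0.17, adjusted p = 0.0138). The count of 4 was 1 without WT replicate 2 or KO replicate 2 and 2 without KO replicate 1, and 15 without resting KO replicate 3 and resting 3F replicate 3.

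**Figure D5:**
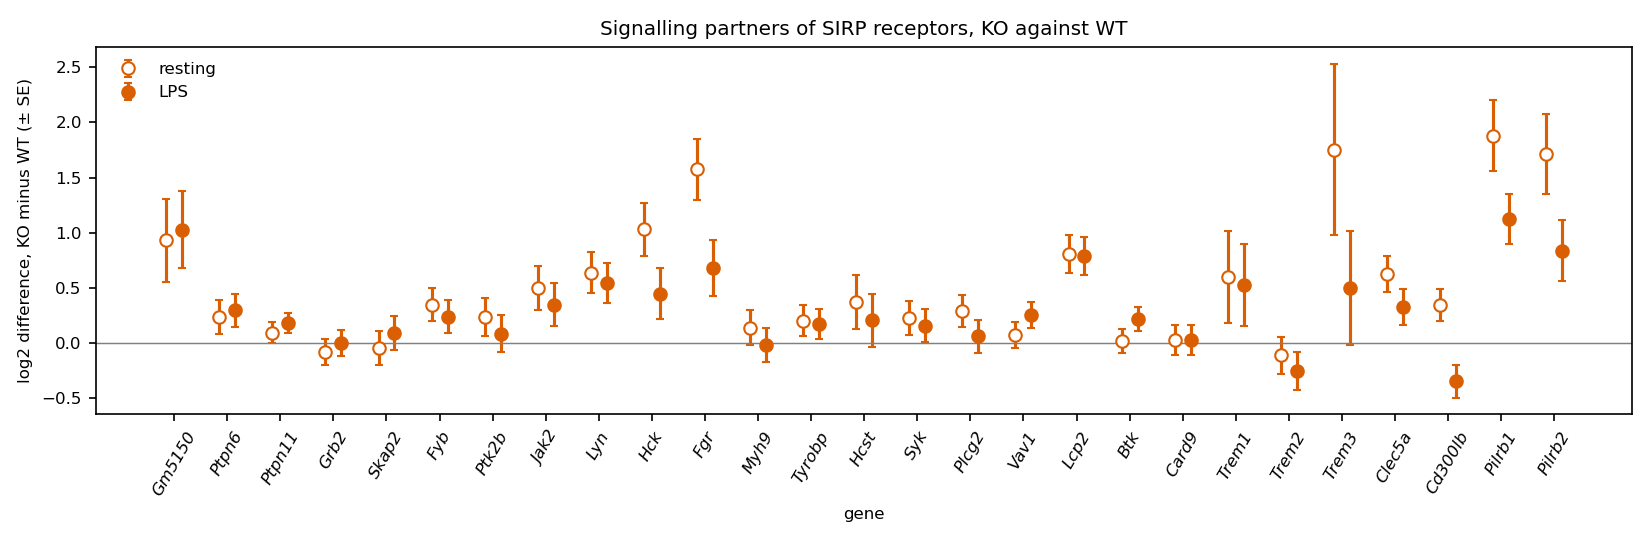
Log2 difference between KO and WT, with SE from the edgeR fit, at rest (open) and with LPS (filled) for Gm5150 and for the genes of the SIRPα effector, DAP12 signalling and DAP12-coupled receptor lists with an average log2 CPM of at least 1. Pilrb1, Pilrb2 and Fgr lie highest among the called genes at rest, at 1.88, 1.72 and 1.57, and Tyrobp lies at 0.20 and 0.17.

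Between 3F and WT 0 of the 47 list genes were called by edgeR, DESeq2 or voom in either state, and 4 had an unadjusted p under 0.05 at rest and 0 with LPS. Between KO and 3F, 10 were called higher and 2 lower at rest, or 21.3% and 4.26% against 6.79% and 6.1% of all genes, among them Pilrb1 (2.04 ± 0.33, adjusted p = 0.00227), Pilrb2 (1.81 ± 0.37, adjusted p = 0.00818) and Pilra (1.41 ± 0.35, adjusted p = 0.018) on the higher side and Itgb3 (−1.09 ± 0.30, adjusted p = 0.0288) and Qpct, a glutaminyl cyclase (−0.67 ± 0.18, adjusted p = 0.0251), on the lower. With the compared groups alone 0 were called. Without resting KO replicate 3, 6 were called higher and 2 lower, and the calls of Pilra (0.93, adjusted p = 0.0685), Itgb3 (−1.13, adjusted p = 0.0521) and Qpct (−0.54, adjusted p = 0.0791) were lost. The 2 lower were then Cd24a (−1.552, adjusted p = 0.0363 by edgeR) and Lair1 (−0.416, adjusted p = 0.0314). Without resting 3F replicate 3, 8 were called higher and 1 lower, and the calls of Pilra (1.18, adjusted p = 0.0538) and Qpct (−0.51, adjusted p = 0.117) were lost. With LPS 3 were called higher and 0 lower, or 6.38% and 0% against 1.51% and 2.37% of all genes, namely Siglece (1.06 ± 0.19, adjusted p = 0.00538), Lcp2 (0.65 ± 0.17, adjusted p = 0.0411) and Clec4a2, an inhibitory lectin (0.54 ± 0.13, adjusted p = 0.029), a count that fell to 1 without KO replicate 1 or 2 or 3F replicate 1 or 3. The comparison of KO with 3F and that of KO with WT share their KO libraries. For the interaction of genotype and LPS 0 list genes were called by edgeR (3 at an unadjusted p under 0.05 for KO and 0 for 3F).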

How the data were processed

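Raw read counts per protein-coding gene were deposited as 1 table. The authors trimmed reads with cutadapt 1.8.3, removed reads of ribosomal DNA, aligned the rest to mm10 with HISAT2 2.1.0 and counted them by strand on Gencode M15 with featureCounts 1.5.3 under a mapping quality minimum that drops multi-mapped reads. Read length was not given in the sources used here.

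Counts of the 18 libraries were analysed in R 4.3.3 with edgeR 4.0.16. The filterByExpr function with the 6 groups kept 11357 of 21734 genes. After TMM scaling (factors 0.812 to 1.15) all libraries entered 1 quasi-likelihood fit with a coefficient per group, and 11 comparisons were tested two-sided with Benjamini-Hochberg adjustment, called at an adjusted p under 0.05. SE is the log2 difference divided by the square root of F. Alternatives were RLE size factors, DESeq2 1.42.0, limma 3.58.1 voom with quality weights, no filter, the compared groups alone, a replicate block and leaving out libraries. With 3 against 3 libraries the smallest exact permutation p is 0.1. The procedure was tested on simulated data.

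The members, lists and tests were chosen with earlier results of these data known. Named are the 5 members, Tyrobp, Ptpn6 and Ptpn11, per comparison up to 3 called genes in each direction from the lists and the genes within 2000000 bases (average log2 CPM of at least 1), and the 5 genes most like each member, of which 1 is not reported here. Gm5150, Gm9733, and Irgm1 and Rsad2 by library were described after their values were seen. Positions and transcripts are of GENCODE M21 on the build of the counts and matched 21679 gene IDs, leaving 55 without a match, and microRNAs and promoters are of RefSeq GRCm38.p6, aligned with Biopython 1.88. RefSeq promoters were matched for 4 of the 5 members, and Sirpa was not. The same-numbered libraries of a genotype may come from the same mouse, since their columns share a letter, but the labels do not say so. The main fit leaves such pairing out, and its p-values measure the spread between these libraries. Replicates of a group differed by more than counting noise. Counting intervals cover counting error only. Protein measurements were not used here.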

Additional observations from a re-analysis of the deposited data

How the results depend on the processing

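Cd47 kept its LPS call in WT and 3F under every alternative tried. The KO to WT differences of Sirpb1a and Sirpb1c kept their direction, which is no separate result, since those values chose the members. Members called for LPS in WT numbered 2, in place of 1, with voom, with the replicate block and without both libraries that stood apart (chosen after seeing the data), and 1 to 3 leaving out single libraries. In KO they numbered 3 with voom, 2 with the block and 1 without both libraries, in place of 0, and 0 to 1 leaving out single libraries. In 3F they numbered 1, in place of 2, with the compared groups alone, and 1 to 2 leaving out single libraries. The replicate block added Sirpb1a in WT (0.52, adjusted p = 0.0417) and in KO (0.50, adjusted p = 0.0428), and Cd47 in KO (0.75, adjusted p = 0.0355 by edgeR's quasi-likelihood test). Deviations of resting and LPS libraries with one number correlated at 0.0283 to 0.318, and 8 of 9 resting libraries correlated best with their own number, a hint of pairing from the data. The count columns of same-numbered libraries share a letter, and 3 mice of each genotype gave marrow for both states. The labels do not say that a number or letter marks a mouse, and several of the correlations were near 0. The block stayed an alternative, so the LPS tests of the main fit leave a possible pairing out.

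List genes called between KO and WT at rest numbered 17 with voom and 1 with the compared groups alone, in place of 11, and 4 to 12 leaving out single libraries. With LPS they numbered 10 with DESeq2, 17 with voom, 13 with the compared groups alone and 15 without both libraries, in place of 4, and 1 to 4 leaving out single libraries. Between KO and 3F they numbered 19 with voom and 0 with the compared groups alone at rest, in place of 12, and 8 to 13 leaving out single libraries. With LPS these were 6 with DESeq2, 16 with voom, 5 without the filter, 14 with the compared groups alone and 10 without both libraries, in place of 3, and 1 to 3 leaving out single libraries. For the interaction of KO 1 was called with voom and 1 without both libraries, in place of 0, and 0 to 1 leaving out single libraries. The causes were not tested.

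Differences near 0 that no test called changed sign. For 3F against WT at rest, Sirpa was 0.00121 with voom and 0.0731 without both libraries, and Cd47 was 0.0142 without both. For the interaction of 3F, Sirpb1b was 0.0192 without the filter and 0.0352 with the block, and Cd47 was 0.0255 with voom. Leaving out single libraries, the ranges that crossed 0 among the tested comparisons were, for Sirpb1b, −0.298 to 0.065 with LPS in WT, −0.261 to 0.116 in 3F, −0.183 to 0.156 for 3F against WT at rest, −0.131 to 0.231 with LPS and −0.174 to 0.22 for the interaction of 3F. For Cd47 they were −0.119 to 0.123 for 3F against WT at rest, −0.212 to 0.0912 with LPS and −0.195 to 0.124 for the interaction. For Sirpa at rest the range was −0.278 to 0.0731. With LPS it was −0.112 to 0.264 for Sirpb1a and −0.239 to 0.203 for Sirpb1c, and −0.0317 to 0.184 for the LPS response of Sirpb1c in 3F. The shallowest library held 29 reads of Sirpb1b, and values of single SIRPβ1 copies are limited by depth and by shared sequence. Among the differences given without a test, those of Sirpa between KO and WT (−0.00201 to 0.175) and KO and 3F (−0.0681 to 0.064) with LPS crossed 0, as did those of Sirpa, Sirpb1a and Sirpb1c for the interaction of KO.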
